A study of Mus musculus with 18 samples.

Results

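Brunner's glands of GLP-1R-/- mice were compared with those of wild-type mice, both collected 18 h after exendin-4, on 3 arrays of each genotype out of 18 in the series. The arrays were chosen by their labels alone, and each held RNA from the glands of 1 male mouse of the outbred CD-1 stock, cut from the duodenum by laser capture microdissection. The knockout group was labelled GLP1-R -/- with exendin-4 for 18 h (replicates 16, 17 and 18), and its control was labelled wild-type with the same agent and time (replicates 10, 11 and 12). Because both genotypes received the agonist and share the labelled time after it, neither the agonist nor the time since it was given separates them. The other 12 arrays were 3 of each genotype 6 h after exendin-4 and 3 of each left untreated. They were used to set the 18 h difference beside the genotype difference at 6 h and without treatment. The labels do not say whether the genotypes were littermates, and they give no dose, age or route.

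The receptor for glucagon-like peptide 1 is a cell surface receptor that couples to the stimulatory G protein and raises cyclic AMP, and exendin-4 is a peptide agonist of it. In mice the receptor is known to be abundant in Brunner's glands, the submucosal glands that coat the first stretch of the duodenum with alkaline mucus. In knockout glands the agonist meets no such receptor, so a genotype difference after treatment can hold both a response that only wild-type glands make and a difference that the genotypes carry without treatment. The knockout and wild-type groups left untreated hold the second kind alone. No group was given vehicle, and the labels give no collection time for untreated mice. Treated and untreated groups may therefore also differ in handling and in hour of collection, which cannot be told apart from the agonist here.

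Levels are given as RMA signals in log2 units, where 1 unit is a 2-fold difference, and differences are knockout minus wild type throughout. Genes are called at a limma adjusted p under 0.05 over 12775 tested genes. The rows carry Ensembl gene identifiers that neither the deposited table nor the reference table pairs with symbols, so the genes are described by identifier, level and pattern, without names or functions. For the same reason the level of the receptor transcript, which would check the genotype labels, and the markers of Brunner's gland and of neighbouring cells were not analysed here. The 3 knockout arrays correlated with one another across genes between 0.988 and 0.993 and the 3 wild-type arrays between 0.976 and 0.989, while pairs across the genotypes lay between 0.967 and 0.979. The first principal component of the 6 arrays held 48.7% of their variance and placed all 3 knockout arrays on one side and all 3 wild-type arrays on the other. The median SD of a gene within a group was 0.124 in knockout and 0.153 in wild-type arrays.

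At 18 h, 162 genes were called between knockout and wild-type glands, 1.27% of those tested. Of these, 117 genes (0.916%) were lower and 45 genes (0.352%) were higher in knockout glands. The lower genes had a median difference of -1.0 on the log2 scale, or 2.0-fold, and the higher genes a median of 1.05, or 2.07-fold. Over all tested genes the median difference was 0.0073. In each of the 162 called genes the knockout arrays lay all below or all above the wild-type arrays. Among tested genes this was so for 11.5% with knockouts below and for 12.4% with knockouts above. The genes were called on these same arrays, which favours such separation, so it is a description only. In tissue RNA of this kind, fewer cells of a type and less RNA per cell cannot be told apart.

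Among the 117 lower genes, 12 differed 4-fold or more, 46 differed 2-fold to 4-fold, and 59 less than 2-fold. Among the 45 higher genes these numbers were 7, 17 and 21. The smallest difference called was 0.47 on the log2 scale. The median level of the lower genes was 6.30 in knockout and 7.47 in wild-type glands, and that of the higher genes was 8.25 in knockout and 6.77 in wild-type glands. The mean of 15 of the lower genes lay below 4.79 in knockout glands, the level used to filter dim genes, and none of the 117 lay below it in wild-type glands. RMA compresses differences of dim genes, and this applies to those 15 genes.

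The count rested on more than 1 array. It was 40 without knockout replicate 18, 75 without knockout replicate 17, 82 without knockout replicate 16 and 52 without wild-type replicate 11. It was 427 when replicate 13 of the knockouts at 6 h, an array that correlated with the other 17 between 0.911 and 0.945 and took no part in the comparison, was kept out of the shared estimate of spread. In a limma fit to only the 6 arrays compared the count was 347, with 139 of the 162 among them, and 55.9% of the 347 were lower in knockout glands, against 72.2% in the fit to all 18 arrays.

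**Figure D1:**
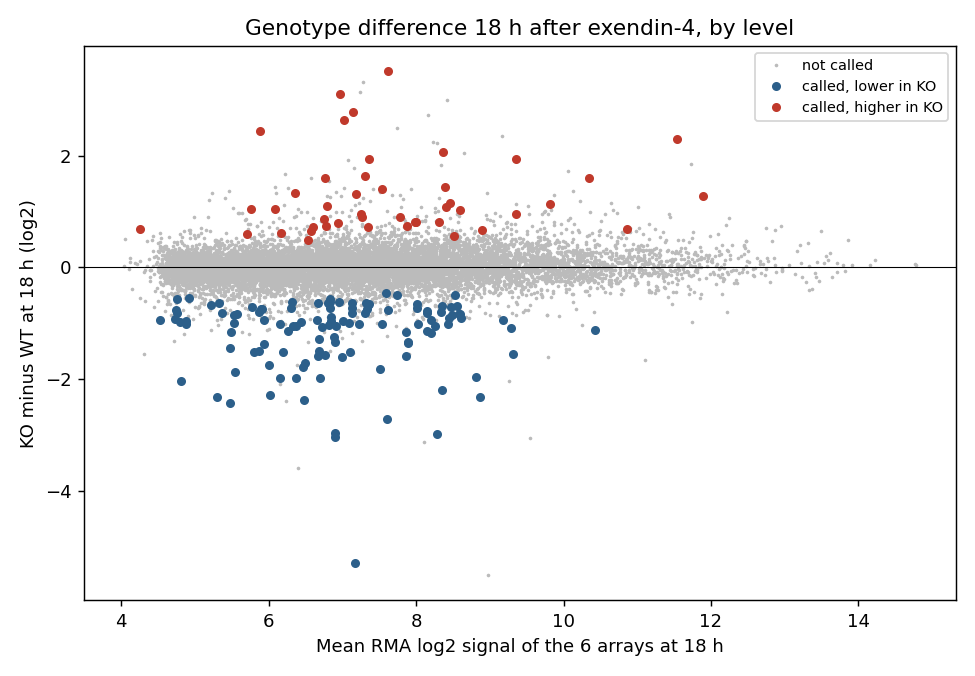
Knockout minus wild-type difference at 18 h (vertical axis, log2) against the mean RMA signal of the 6 arrays (horizontal axis, log2), 1 point per tested gene. The 117 called lower genes are blue, the 45 called higher genes red and the genes not called grey; some grey points lie as far from 0 as the coloured ones.

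The largest fall among called genes belonged to ENSMUSG00000070645. Its signal was 4.46, 4.57 and 4.53 in the knockout arrays at 18 h, against 10.6, 9.71 and 9.11 in the wild-type arrays. The difference was -5.30 (SE 0.387, limma adjusted p = 2.12e-06), a 39.4-fold lower level in knockout glands. All 3 knockout arrays lay below the filter level of 4.79, so the fold holds only on the RMA scale. Untreated glands had 4.66, 4.66 and 4.82 in knockouts and 4.78, 5.38 and 5.12 in wild-type mice, and these ranges overlapped (difference -0.38, SE 0.387, limma adjusted p = 0.999). At 6 h the gene was at 5.23, 4.81 and 4.10 in knockout glands and at 6.66, 7.80 and 8.37 in wild-type glands, a difference of -2.90 (SE 0.387, limma adjusted p = 0.000306). In all 9 knockout arrays and the 3 untreated wild-type arrays it stayed at or below 5.38. The genotype difference at 18 h exceeded the untreated one by -4.92 (SE 0.548, limma adjusted p = 0.00107).

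ENSMUSG00000024747 had the second largest fall among the genes that qualified for naming. Knockout arrays at 18 h had signals of 4.76, 5.47 and 5.93, against 8.54, 9.04 and 7.68 in wild-type arrays. The difference was -3.03 (SE 0.632, limma adjusted p = 0.0221), or 8.19-fold. Its call was lost without any 1 of wild-type replicates 10 and 11 and knockout replicates 16, 17 and 18, with limma adjusted p between 0.0642 and 0.128 and differences between -3.30 and -2.72. Unlike the gene before it, it was already far apart without treatment: untreated knockouts had 5.35, 4.03 and 5.62 and untreated wild-type mice 7.43, 7.11 and 8.42, a difference of -2.65 (SE 0.632) that missed the threshold (limma adjusted p = 0.0782). At 6 h it was at 4.65, 7.29 and 4.26 in knockout arrays, where replicate 14 stood well above the other two, and at 7.92, 8.18 and 8.77 in wild-type arrays (difference -2.89, SE 0.632, limma adjusted p = 0.0108). That 6 h call was lost with array weights, where the difference was -1.71 (limma adjusted p = 0.0588), in a fit to only the 6 h groups (limma adjusted p = 0.145) and without wild-type replicate 9 (difference -2.65, limma adjusted p = 0.052). The 18 h difference exceeded the untreated one by -0.38 (SE 0.893, limma adjusted p = 0.999).

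ENSMUSG00000091747 had the largest rise. Its signal was 8.78, 9.66 and 9.70 in the knockout arrays at 18 h, against 6.34, 5.44 and 5.81 in the wild-type arrays. The groups were 3.52 apart (SE 0.651, limma adjusted p = 0.0119), or 11.4-fold. The call was lost without wild-type replicate 11 (adjusted p = 0.0766), knockout replicate 17 (0.0581) or knockout replicate 18 (0.0719), with differences of 3.31, 3.38 and 3.36. The untreated difference was larger, at 4.09 (SE 0.651, limma adjusted p = 0.00677), with knockout signals of 10.4, 10.2 and 9.44 and wild-type signals of 7.30, 5.32 and 5.13. At 6 h knockout arrays had 9.23, 10.4 and 10.1 and wild-type arrays 8.34, 5.31 and 5.69, a difference of 3.45 (SE 0.651, limma adjusted p = 0.00428) whose call was lost in a fit to only the 6 h groups (limma adjusted p = 0.103). The wild-type level varied from mouse to mouse, and untreated replicate 1 and 6 h replicate 7 stood above the other wild-type arrays of their groups without reaching the lowest knockout array of the same group.

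ENSMUSG00000030703 rose in knockout glands by 3.11 (SE 0.452, limma adjusted p = 0.00214), or 8.61-fold. The knockout arrays at 18 h had 8.40, 8.60 and 8.55 and the wild-type arrays 5.77, 5.15 and 5.33, so each group was tight and the gap between them wide. Untreated glands had 9.41, 8.78 and 8.62 in knockouts, against 5.26, 7.72 and 5.24 in wild-type mice, where replicate 2 alone stood high. The untreated difference was 2.87 (SE 0.452, limma adjusted p = 0.00677), a call lost in a fit to only the untreated groups (limma adjusted p = 0.114), and the 6 h difference 3.30 (SE 0.452, limma adjusted p = 0.000332). The 18 h difference minus the untreated one was 0.24 for this gene (SE 0.640) and -0.58 for ENSMUSG00000091747 (SE 0.921), and neither passed (limma adjusted p = 0.999 for both).

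**Figure D2:**
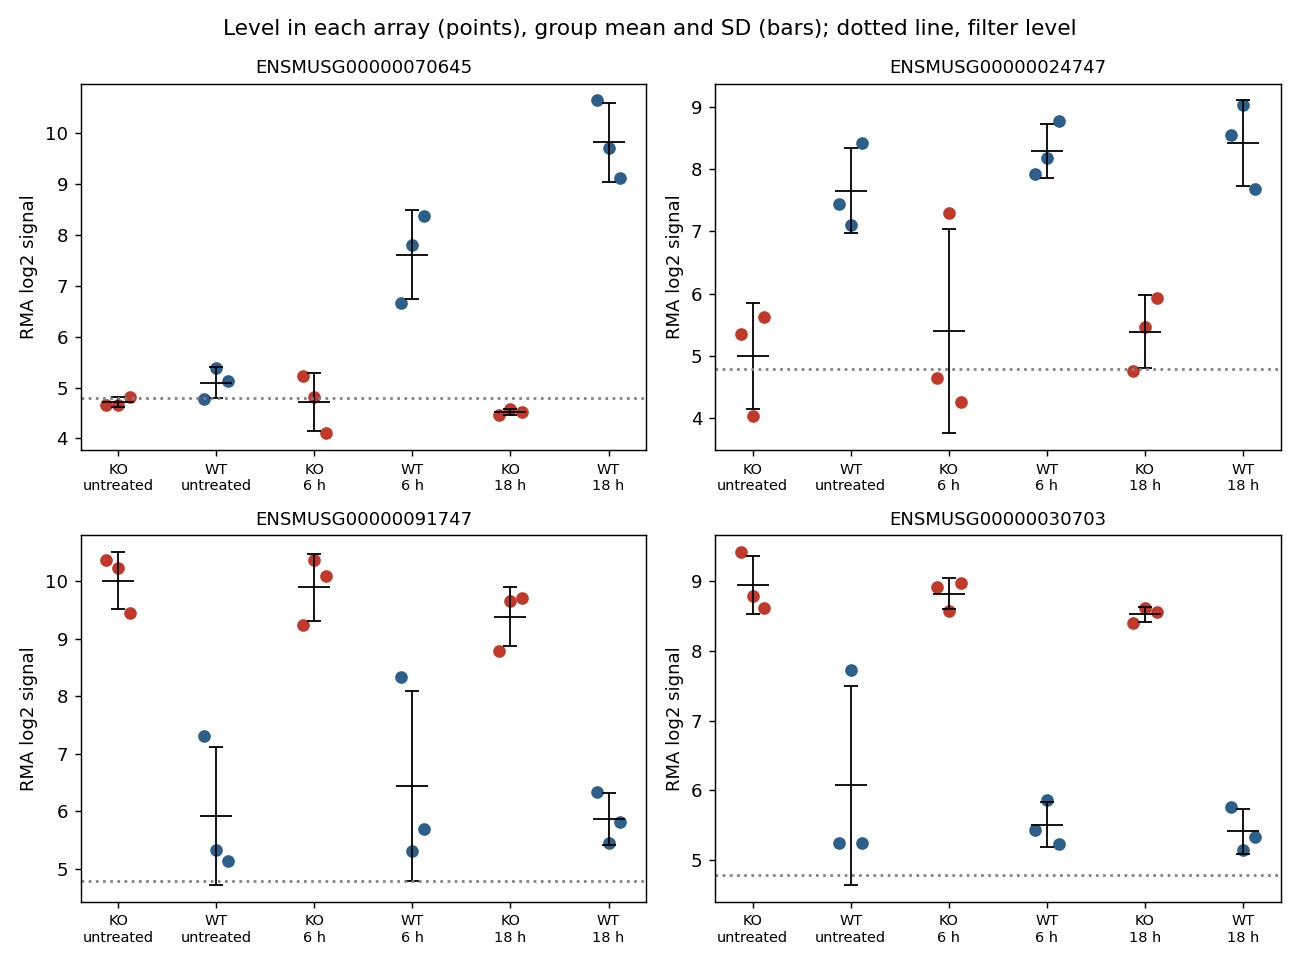
RMA log2 signal of 4 genes in every array (points, red for knockout and blue for wild type), with the group mean and SD (bars, n = 3) for untreated mice and for mice 6 h and 18 h after exendin-4; the dotted line is the filter level of 4.79. ENSMUSG00000070645 separates the genotypes after exendin-4 and not in untreated mice, while the other 3 genes separate them in all 3 pairs of groups. Some single arrays of those 3 genes stand high within their group without reaching the other genotype of the same pair of groups.

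The untreated and 6 h comparisons share no arrays with the one at 18 h, so the genes called at 18 h could be followed in mice that did not select them. All comparisons come from 1 fit and share its estimate of spread. Among the 117 lower genes, 108 (92.3%) were also lower in untreated knockouts, against 44.7% of all tested genes. In 66 of the 117 (56.4%) all 3 untreated knockout arrays lay below all 3 untreated wild-type arrays, against 5.65% of tested genes, and in 0 they lay above. By the limma test, 25 of the 117 (21.4%) were called lower in untreated knockouts, against 0.368% of tested genes. Their median difference was -0.48 in untreated glands, where 18 h had -1.0; the 18 h value is the one that selected the genes, which favours its size.

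The 45 higher genes behaved alike. In untreated mice 40 of them (88.9%) were higher in knockouts, against 55.3% of tested genes. In 26 (57.8%) the untreated knockout arrays lay above all untreated wild-type arrays, against 7.77% of tested genes, and in 1 gene they lay below. The limma test called 11 (24.4%) higher in untreated knockouts, against 0.25% of tested genes. The median difference of the 45 was 0.60 in untreated glands. Over all 12775 genes the 18 h and untreated differences had a Pearson r of 0.532, a value across genes, which are not independent replicates.

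Seen from the other side, genes called in untreated mice mostly kept their direction at 18 h. Of 47 genes lower in untreated knockouts, 42 were lower at 18 h and 25 (53.2%) were called lower, against 0.916% of tested genes. Their median difference was -1.01 at 18 h and -1.28 in the untreated arrays that selected them. Of 32 genes higher in untreated knockouts, 31 were higher at 18 h and 11 (34.4%) were called higher, against 0.352% of tested genes. Their medians were 0.71 at 18 h and 1.07 untreated. The median 18 h difference over all tested genes was 0.0073. None of these 79 genes, 0.618% of those tested, was called in the opposite direction at 18 h. The number called in untreated mice was 31 without knockout replicate 5, 41 without knockout replicate 4, 40 without wild-type replicate 1, 40 without wild-type replicate 2 and 137 without replicate 13 of the 6 h knockouts.

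At 6 h the shared part was smaller as a share of the longer list. Of the 117 lower genes, 89 (76.1%) were also lower in knockouts at 6 h, against 43.6% of tested genes, and 52 (44.4%) had all knockout arrays below all wild-type arrays at 6 h, against 11.3% of tested genes, and 11 had them above. The limma test called 34 (29.1%) lower at 6 h, against 3.33% of tested genes, and 3 higher. Of the 45 higher genes, 34 (75.6%) were also higher at 6 h, against 56.4% of tested genes, and 11 were lower. In 23 (51.1%) the knockout arrays lay above without overlap at 6 h, against 12.7% of tested genes, and in 4 they lay below. The limma test called 15 (33.3%) higher, against 2.73%, and 1 lower. In the reverse direction, the 34 were 7.98% of 426 genes called lower at 6 h, and the 15 were 4.30% of 349 genes called higher. Of all tested genes, 0.916% were called lower and 0.352% higher at 18 h. The median 18 h difference of those 426 genes was -0.098 and that of the 349 genes 0.088, where their own 6 h medians were -0.83 and 0.77. In all, 775 genes (6.07%) were called at 6 h, and after median centring of the arrays the calls were 504 lower and 237 higher in knockouts. The number called was 420 without wild-type replicate 7 and 478 without wild-type replicate 9. Replicate 13 was 1 of the 3 knockout arrays at 6 h, and without it 787 genes were called, 536 of them among the 775.

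**Figure D3:**
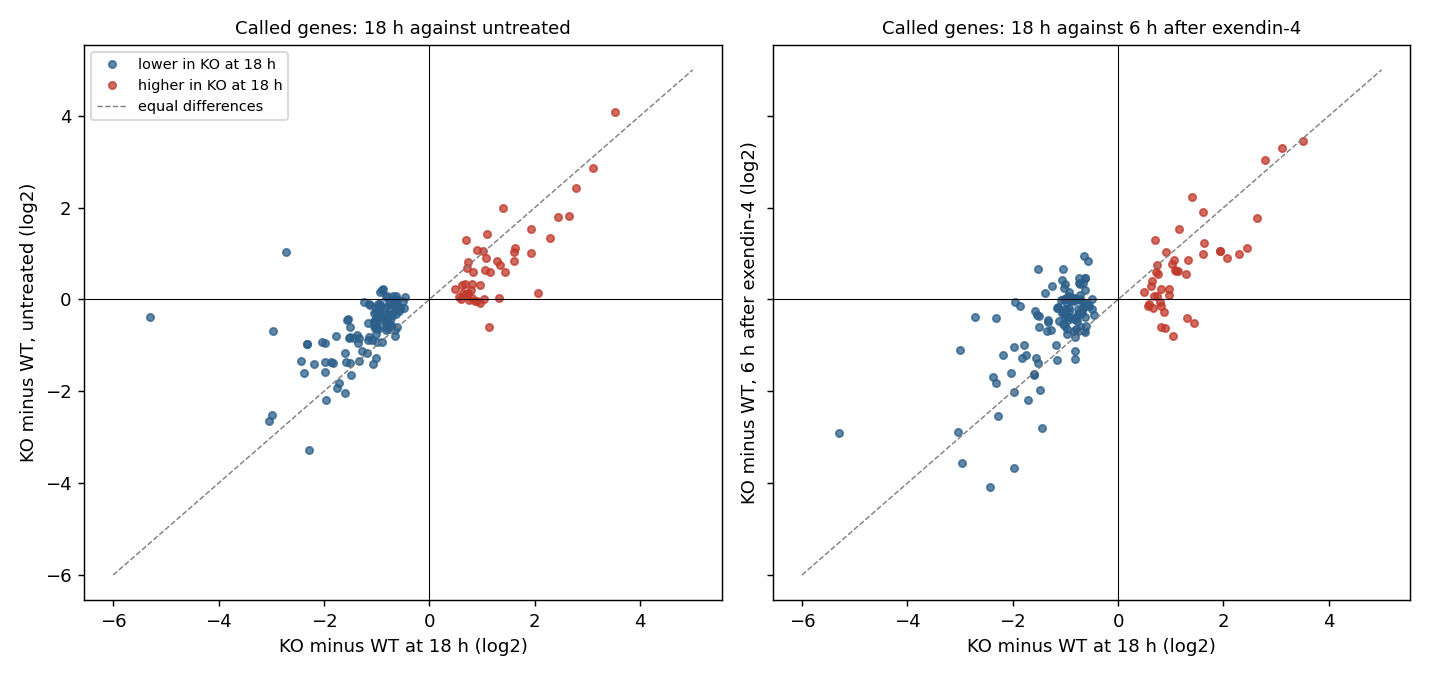
Knockout minus wild-type difference (log2) of the 162 genes called at 18 h, with the 18 h difference on the horizontal axis and the untreated (left) or 6 h (right) difference on the vertical axis; blue genes are lower and red genes higher in knockouts at 18 h, and the dashed line marks equal differences. Most points of the left panel keep the sign of the 18 h difference and lie closer to 0 than the dashed line.

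In 21 genes the genotypes were called apart in the same direction in all 3 comparisons. The 12 lower ones had median differences of -1.50 untreated, -1.67 at 6 h and -1.65 at 18 h. Their median level in knockout glands was 5.37 untreated, 5.47 at 6 h and 5.36 at 18 h, and in wild-type glands 7.23, 7.70 and 7.25 in the same order. The 9 higher genes had medians of 1.29 untreated, 1.28 at 6 h and 1.02 at 18 h, and both of the named rises were among them. These genes were chosen for a difference in all 3 comparisons, so the medians are a description.

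Another 98 genes were called at 18 h and in the same direction in neither of the other comparisons, 70 lower and 28 higher. Calls in the opposite direction did not count: at 6 h there were 3 among the 117 lower and 1 among the 45 higher genes. The 70 had a median difference of -0.28 untreated, -0.095 at 6 h and -0.92 at 18 h. In untreated mice 62 of the 70 (88.6%) were also lower in knockouts, against 44.7% of tested genes, and 28 (40.0%) lay below without overlap, against 5.65%. At 6 h 42 (60.0%) were lower, against 43.6% of tested genes. Their median level was 6.48 in knockout glands at 18 h and 7.44 in wild-type glands, and in untreated mice 6.57 in knockouts and 6.98 in wild type. The 28 higher genes had medians of 0.21 untreated, 0.14 at 6 h and 0.93 at 18 h, and 24 (85.7%) were higher in untreated knockouts, against 55.3% of tested genes. The remaining genes were called in the same direction at 18 h and in 1 other comparison. These were 13 lower and 2 higher with the untreated one, and 22 lower and 6 higher with the one at 6 h.

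The mean level over each set was followed in every array. Over the 117 lower genes it was 6.38 ± 0.046 in knockouts and 7.01 ± 0.061 in wild-type mice without treatment (SD, n = 3 each). At 6 h it was 6.41 ± 0.043 in knockouts and 6.97 ± 0.0053 in wild-type mice, and at 18 h 6.31 ± 0.043 in knockouts and 7.51 ± 0.090 in wild-type mice (SD, n = 3 each). The 3 knockout groups lay close together, and the wild-type group at 18 h stood above the other wild-type groups. Over the 45 higher genes the mean was 8.15 ± 0.071 in knockouts and 7.38 ± 0.11 in wild-type mice without treatment, and 8.15 ± 0.11 in knockouts and 7.45 ± 0.083 in wild-type mice at 6 h (SD, n = 3 each). At 18 h it was 8.35 ± 0.089 in knockouts, above the other knockout groups, and 7.06 ± 0.016 in wild-type mice, below the other wild-type groups (SD, n = 3 each).

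**Figure D4:**
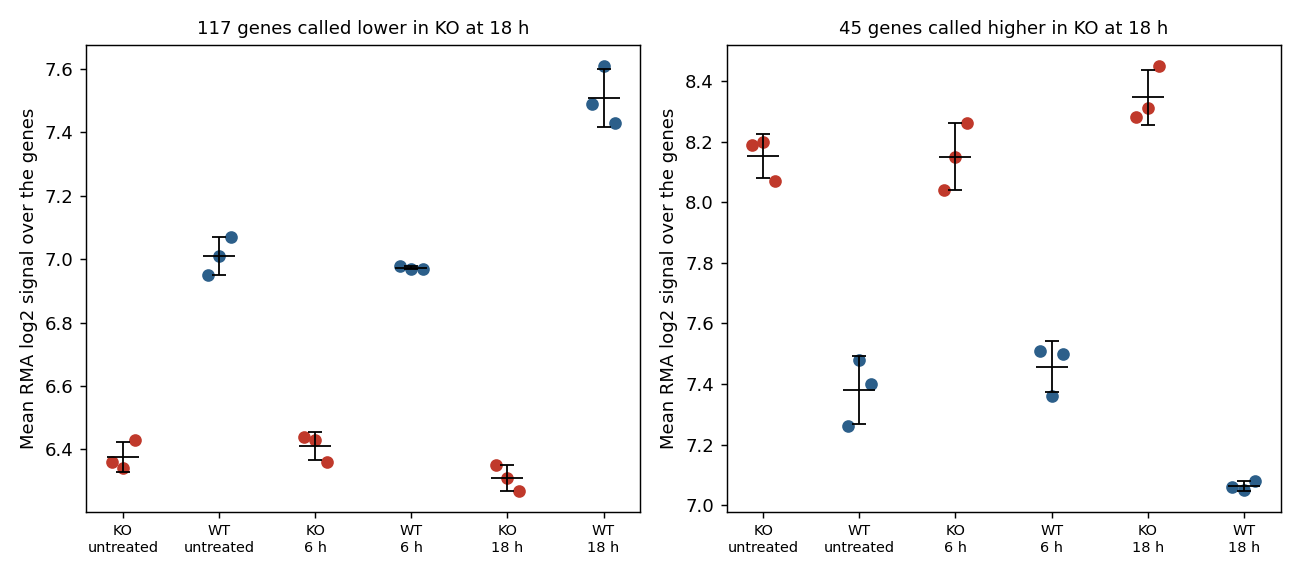
Mean RMA log2 signal over the 117 genes called lower (left) and the 45 called higher (right) in knockouts at 18 h, in every array (points, red for knockout and blue for wild type), with group mean and SD (bars, n = 3). The genotypes separate in all 3 pairs of groups, and the wild-type arrays at 18 h, which helped select the genes, lie farthest from the knockouts.

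The 18 h arrays selected these genes, so the change of each genotype from its untreated group is a description only. For the lower genes the median change was -0.075 in knockout and 0.47 in wild-type glands, and the change was the larger in wild-type glands for 89 of 117. The wild-type group at 18 h had the highest mean of all 6 groups for 88 of the 117. For the higher genes the medians were 0.17 in knockout and -0.35 in wild-type glands, the wild-type change was the larger for 27 of 45, and the wild-type group at 18 h had the lowest mean for 31 of 45. By the limma test 8 of the 162 genes, all of them lower in knockouts, were called between wild-type mice at 18 h and untreated ones, where 0.196% of tested genes were called and 0.125% were called higher. In knockouts 0 of 12775 genes were called between 18 h and untreated, with 657 (5.14%) at an unadjusted p under 0.05.

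Whether the genotype difference at 18 h was other than that of untreated mice was tested as a difference of differences. Limma called 3 genes, 0.0235% of those tested, all with a more negative difference at 18 h. Before adjustment, 601 genes (4.7%) had a p under 0.05. Among the genes called at 18 h, 49 of the 117 lower and 17 of the 45 higher ones had an unadjusted p under 0.05 and a difference that had widened, a count that the selection on the 18 h arrays favours. The standard error of this contrast had a median of 0.278 over the 162 genes, against 0.196 for the 18 h difference itself, so a gene had to differ by more to be called. The count was 1 without knockout replicate 17 at 18 h, 1 without knockout replicate 18 at 18 h, 1 without untreated knockout replicate 6 and 6 without replicate 13 of the 6 h knockouts.

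ENSMUSG00000070645 was the first of the 3. The second crossed over: its signal was 6.47, 6.35 and 5.92 in knockouts at 18 h and 9.03, 9.22 and 8.65 in wild type at 18 h, while untreated knockouts had 7.67, 8.11 and 8.82 and untreated wild-type mice 6.00, 7.35 and 8.13. The difference was -2.72 at 18 h (SE 0.380, limma adjusted p = 0.00139) and 1.04 untreated (SE 0.380, limma adjusted p = 0.408), and the contrast of both was -3.76 (SE 0.537, limma adjusted p = 0.0151). The last gene of the 3 had 5.49, 5.33 and 5.40 in the knockout arrays at 18 h, where the wild-type arrays had 9.01, 8.04 and 8.08. Untreated knockouts had 5.28, 5.37 and 5.61 and untreated wild-type mice 5.98, 6.23 and 6.12. Its difference was -2.97 at 18 h (SE 0.252, limma adjusted p = 7.03e-06) and -0.69 untreated (SE 0.252, limma adjusted p = 0.408), a contrast of -2.28 (SE 0.357, limma adjusted p = 0.031). At 6 h this last gene had 5.86, 4.96 and 4.78 in knockouts and 8.91, 8.66 and 8.72 in wild-type mice. In the first and the last gene the wild-type arrays at 6 h and at 18 h lay above all untreated arrays of both genotypes. In the second, the 3 knockout arrays at 18 h lay below all untreated knockouts and the 3 wild-type arrays at 18 h above all untreated wild-type mice.

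Between the 2 collection times more genes moved. The genotype difference at 18 h was other than that at 6 h for 197 genes, 1.54% of those tested. For 113 of them (0.885%) it was more positive at 18 h, with median differences of -0.85 at 6 h and 0.28 at 18 h. Of these genes, 92 (81.4%) had been called lower in knockouts at 6 h, against 3.33% of tested genes. For 84 (0.658%) it was more negative, with medians of 0.66 at 6 h and -0.40 at 18 h. Of these, 50 (59.5%) had been called higher at 6 h, against 2.73% of tested genes. After median centring of the arrays, limma called 53 genes more negative and 125 more positive at 18 h. The 6 h arrays enter both the 6 h call and this contrast, which favours such a pattern. At 18 h, 22 of the 84 genes were called lower, against 0.916% of tested genes, and 8 of the 113 higher, against 0.352%. The 18 h arrays enter this contrast too, which favours these counts. In untreated mice the medians of the 113 and the 84 genes were -0.042 and -0.0067. The count was 124 without wild-type replicate 10 at 18 h, 99 without wild-type replicate 11, 96, 92 and 87 without knockout replicates 16, 17 and 18, and 112 and 97 without the wild-type 6 h replicates 7 and 9. Without replicate 13, a knockout array at 6 h, it was 284, with 180 of the 197 among them.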

How the data were processed

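Transcript levels were measured on 1 Affymetrix array per mouse. Per the labels' protocols, RNA was extracted with TRIzol and column clean-up and then labelled with biotin. The authors deposited log2 signals; the submitters' processing notes name RMA. RMA removes background, brings the arrays to a common distribution and combines the probes of each set, and it gives no detection call. The array model, the probe sets and the build: not given in the sources used here. Arrays have no read depth, and their number limits the precision.

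Of 17204 genes, the 12775 with at least 3 of 18 arrays above 4.79, the 30th percentile of all values, were tested. A linear model with 1 mean for each of the 6 groups was fitted to all 18 arrays (12 residual degrees of freedom) using limma 3.58.1 under R 4.3.3 and moderated with eBayes. P-values are two-sided with Benjamini-Hochberg adjustment over all tested genes, and the procedure was tested on simulated data. In the simulation each gene had the same spread in every array, so an outlying array such as replicate 13 was not tried. Each array is labelled as an individual animal, and no pair of arrays had the same value in more than 12 genes. Alternatives changed the filter, the samples in the fit, the array weights, the scaling and the prior, or left out arrays. Members, gene lists and tests were chosen with earlier results of these data known. The named genes are those with the 2 largest rises and the 2 largest falls among called genes whose arrays did not overlap. The rule had allowed 15 in each direction if the genes had names. Of 49997 reference genes 0 carried an Ensembl identifier, so 35 gene lists chosen by symbol, 13 of them markers of cell types, and any sequences were not analysed here.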

Additional observations from a re-analysis of the deposited data

Results flagged for a closer look

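The genotype difference was found by a test of the difference itself to be other at 18 h than in untreated mice or at 6 h in these cases. Limma called 3 genes whose knockout minus wild-type difference at 18 h was not that of untreated mice, and 197 genes whose difference at 18 h was not that at 6 h. ENSMUSG00000070645 was in both groups: its difference at 18 h minus the untreated one was -4.92 in log2 units, with an SE of 0.548. The limma adjusted p was 0.00107 and ranged from 0.000263 to 0.0066 in 20 alternatives. The 18 h difference minus the one at 6 h was -2.40, also with an SE of 0.548. Its limma adjusted p was 0.0396 and ranged from 0.00244 to 0.109 in 19 alternatives, 10 of which lost the call. All 3 wild-type arrays at 18 h lay above the 3 at 6 h for this gene, and its knockout arrays lay between 4.10 and 5.23 at both times.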

How the results depend on the processing

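No paired analysis was possible because every array has a number of its own in the labels. Counts of called genes depended on how the spread was estimated, and the cause was not tested. With array weights limma called 1589 genes at 18 h, 19 against the untreated difference, 1512 against the 6 h difference, 177 untreated and 2293 at 6 h; replicate 13 had a weight of 0.084. In fits to only the groups compared the counts were 347 at 18 h, 108 against the 6 h difference and 98 at 6 h, and 327 at 18 h with the untreated groups added. Leaving out single arrays gave 40 to 427 at 18 h, 1 to 6 against the untreated difference, 87 to 284 against the 6 h difference, 31 to 137 untreated and 420 to 1004 at 6 h. An arm that loses an array has 2, assumed to vary like the rest. The 427, 6 and 137 came without replicate 13, which is in no arm of those comparisons and enters only their estimate of spread. Of the 40 genes called without knockout replicate 18, 39 were among the 162, and all 162 were called with array weights and without replicate 13. Filters, centring, quantile normalization and an intensity trend kept each total within 1.5 times, but centring gave 29.8% of the genes called against the 6 h difference as more negative, against 42.6%, and 68.0% of those called at 6 h as lower, against 55.0%. The 18 h differences of the 4 named genes kept their sign under all 15 alternatives. For ENSMUSG00000030703 the 18 h minus untreated contrast lay between -0.58 and 0.65 when single arrays were left out, and it turned negative without untreated wild-type replicate 2. The 18 h minus 6 h contrasts of 3 named genes were not called in any fit and had no settled sign. With single arrays left out, that of ENSMUSG00000024747 (-0.15) lay between -0.71 and 0.80 and that of ENSMUSG00000091747 (0.066) between -0.88 and 0.63, and that of ENSMUSG00000030703 (-0.20) was 0.065 with array weights.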

Other observations

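A further 99 genes differed at least 2-fold at 18 h without being called, 64 of them higher and 35 lower in knockouts, whereas the 82 called genes of that size were 24 higher and 58 lower. Among all 181 genes at least 2-fold apart, 88 were higher and 93 lower, so the preponderance of lower genes among the calls was not seen in the size of the differences alone. In 85 of the 99 the knockout and wild-type arrays did not overlap, against 23.8% of tested genes. Choosing the 99 by size on the same arrays favours that count. The standard error of the 99 had a median of 0.460, against 0.254 in the called genes of that size. The 64 higher ones had a median SD at 18 h of 0.271 in knockouts and of 0.496 in wild type. In the 35 lower ones it was 0.273 in knockouts and 0.741 in wild type. In untreated knockouts 60 of the 64 were also higher, against 55.3% of tested genes, and 30 of the 35 also lower, against 44.7%. One uncalled gene had a larger fall, at -5.51, than any called gene.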
